A study of Malus x robusta with 27 samples.

Results

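The genes described here are the nuclear photosynthesis genes of crabapple flowers: 82 of the 48445 genes in the deposited table, chosen by their protein domain (Pfam) annotation. The rule uses no measured value, but it was written with earlier results of these data known. They fall into 4 roles. There were 42 genes with a chlorophyll a/b binding domain (called antenna genes below), 21 of the oxygen-evolving complex (3 for PsbO and 18 with a PsbP domain), 14 for photosystem I subunits (PsaD, PsaE, PsaF, PsaG or PsaK, and PsaH) and 5 for the Rubisco small subunit (RbcS). RNA was sequenced from whole flowers of 3 materials. SF was a progeny individual of *Malus robusta* with strongly fragrant flowers, WF was a progeny individual with weakly fragrant flowers, and Mr was the standard *M. robusta*. Each was sampled at 3 stages, the early balloon stage (EB, a closed bud), the early flowering stage (ES, petals opening and anthers still closed) and the late flowering stage (LS, flower fully open with dehisced anthers). Each of the 9 groups had 3 libraries. SF and WF are 1 individual each, so the p-values for them measure the spread between flowers of that individual, and neither stands for strongly or weakly fragrant crabapple in general.

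In photosynthesis, light is absorbed by chlorophyll held in antenna proteins around photosystem I and photosystem II. PsbO and PsbP sit on the inner face of photosystem II and stabilize the manganese cluster that splits water. PsaD, PsaE and PsaF take part in the docking of electron carriers to photosystem I, and PsaG, PsaK and PsaH are small subunits that help to bind antenna proteins. Rubisco fixes carbon dioxide, and its small subunit is encoded by a family of nuclear genes. In a flower, the green sepals, pedicel and ovary wall carry chloroplasts, and petals lose most of their chlorophyll as they mature. The domain families are wider than the roles they are named for. The chlorophyll a/b binding family also holds stress-induced relatives of the antenna proteins, and the PsbP family holds PsbP-like proteins with other functions, so a gene called by its family here is not a proven subunit.

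The libraries held 16146228 to 29558381 fragments on genes. Expression is given as the deposited FPKM (fragments per kilobase of gene, scaled by a denominator of each library). The denominator was 0.8855 (WF LS 1) to 1.1034 (WF ES 2) times the fragments on genes. The deposited values were therefore not scaled to that total, and scaling by it is among the alternatives below. A gene entered the tests when it reached an FPKM of 1 in at least 3 of 27 libraries. This left 29660 genes, and 77 of the 82 members. The 5 that did not pass were the antenna genes HF29290, HF19935 and HF10124, with 11, 1 and 0 fragments over all libraries, and the PsaH genes HF27379 and HF30062, with 0 fragments each. Of the 77, HF26733 and HF41555 passed only through Mr and HF06997 only through Mr and WF, with 0 SF libraries at 1 FPKM, so a lower level in SF than in Mr was set by the filter for these 3 and is given without a test. HF25390 and HF27531 passed only through SF and WF, with 0 Mr libraries at 1 FPKM. Before the comparisons, 2 libraries need a remark. The genes read for this had little or no signal in the other libraries of their material and were expressed in another material. In SF LS 1 they were at a median of 7.86% of their WF level (86 genes), and in Mr LS 2 at 16.7% (149 genes). Whether these libraries held RNA of another material was not tested. The total of members called in each test that uses these libraries is therefore also given without them. Counts by role, by kind of domain, of groups that do not overlap, shared between materials or over other gene lists are given with all libraries only. Replicates differed to unequal degrees. The mean squared difference between 2 libraries of a group, in units of counting error, was 4.41 to 9.53 in Mr EB. It was 19.6 to 41.2 in Mr LS, 35 to 60.6 in SF EB and 17.3 to 79.7 in SF LS. In WF it was 19.3 to 39.8 at EB and 72.8 to 167 at LS. A count of calls depends on this spread as well as on the size of the change. Leaving out a library or changing a setting can also change how many of all genes are called. For most such counts below, that share of all genes is not given, so they are no result about the members alone. In whole flowers, fewer cells of a type and less RNA per cell cannot be told apart. The summed FPKM of K-box genes, which include the floral organ identity factors, lay between 1718 and 3145 in every library. No library of another tissue was there to set this against, so it is a description and no test of the flower label.

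**Figure D1:**
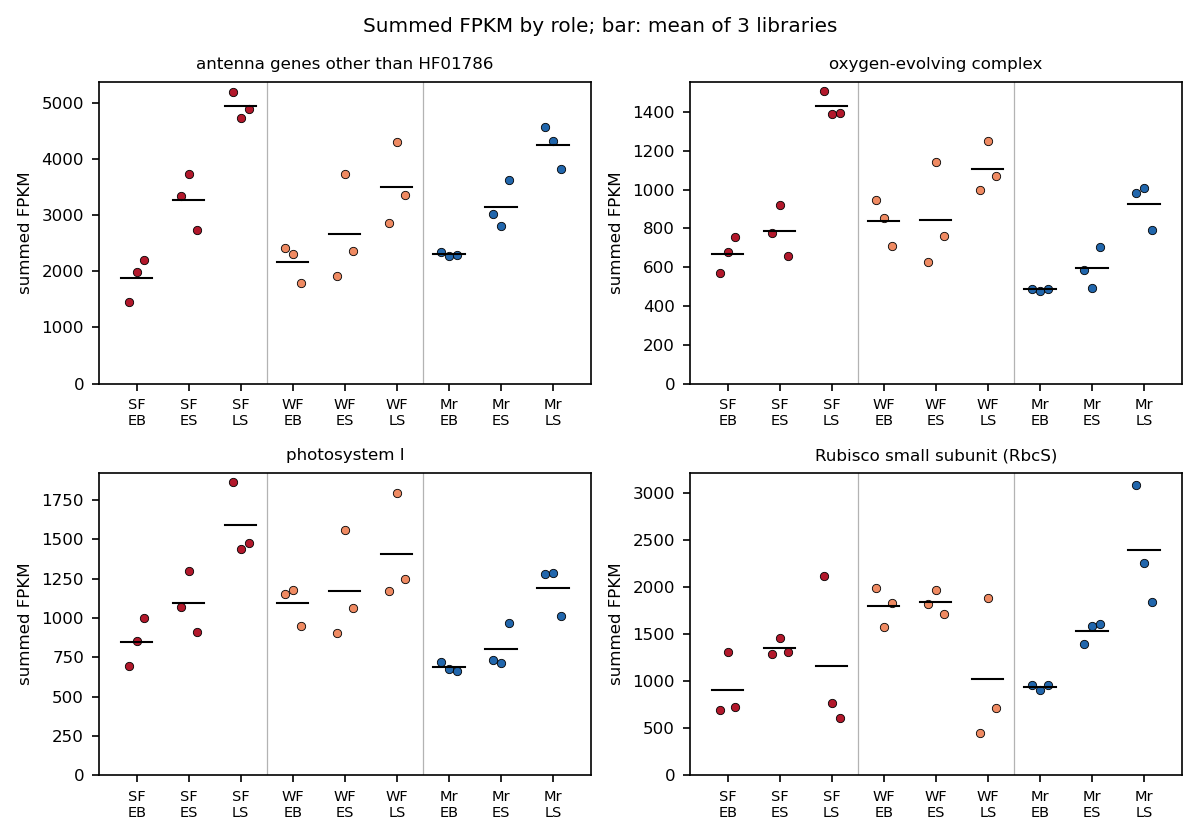
Summed FPKM of the members in each role, by library. Each point is 1 library, each bar the mean of 3, and the axes start at 0. At LS the antenna genes other than HF01786 summed to 4726 to 5195 FPKM in SF, above every SF library at EB (1448 to 2201), while RbcS at LS ran from 611 to 2116 FPKM in SF and from 446 to 1890 in WF.

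The members made up 0.652% (WF LS 1) to 2.3% (Mr LS 1) of the summed FPKM of a library. A single antenna gene, HF01786 (chromosome 13, positions 17621239 to 17621924 of the apple HFTH1 genome, minus strand), held 13.2% to 62.8% of that. With a mean of 4201 FPKM over the 27 libraries it ranked 4 among all genes. Its coding length of 582 bp is shorter than the median of 823.5 bp over the antenna genes. The next antenna genes were HF32011 on chromosome 17 with a mean of 441 FPKM and HF44607 on chromosome 15 with 320 FPKM, and the median over the 42 was 49.1 FPKM. RbcS was led by HF32334 on chromosome 17 (1011 FPKM), HF36772 on chromosome 9 (252 FPKM) and HF07757 on chromosome 16 (123 FPKM). In the oxygen-evolving complex the PsbP genes HF34026 and HF29102 had 251 and 214 FPKM and the PsbO gene HF31250 had 229 FPKM, whereas the other PsbO genes, HF35703 and HF27531, had 4.1 and 0.651 FPKM. In photosystem I the PsaH genes HF27379 and HF30062 had 0 fragments, and the other members named here were more even. PsaD (HF13897 at 179 and a newly assembled gene on chromosome 13 at 97.5 FPKM), PsaE (HF29915 at 136 and HF10957 at 96.7), PsaF (HF23131 at 57 and HF11643 at 42.1), PsaG/PsaK (HF43612 at 127, HF39927 at 67 and HF23223 at 26.6) and PsaH (HF32799 at 146 and HF00226 at 102) all lay within 1 order of magnitude.

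Many members stood on the chromosome pairs that apple retains from an ancient genome duplication. HF34026 and HF29102, both of 807 bp, were on chromosomes 9 and 17, as were the 2 PsaH genes of 435 bp and the 2 leading RbcS genes. Both PsaE genes, both PsaF genes and the adjacent antenna pairs HF11847 with HF11848 and HF18226 with HF18227 were on chromosomes 5 and 10. How alike the sequences of these genes are was not measured. Reads shared by similar copies can be divided between them in mapping, so the share of each copy is uncertain. In 15 of the 82 gene models a second, unrelated domain was annotated. HF33845 (3985 bp) and HF29260 (3960 bp) carry the domains of a cation-pumping ATPase, and HF18227 (1173 bp) a leucine-rich repeat domain. The FPKM of such a model includes any fragments of the other part.

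**Figure D2:**
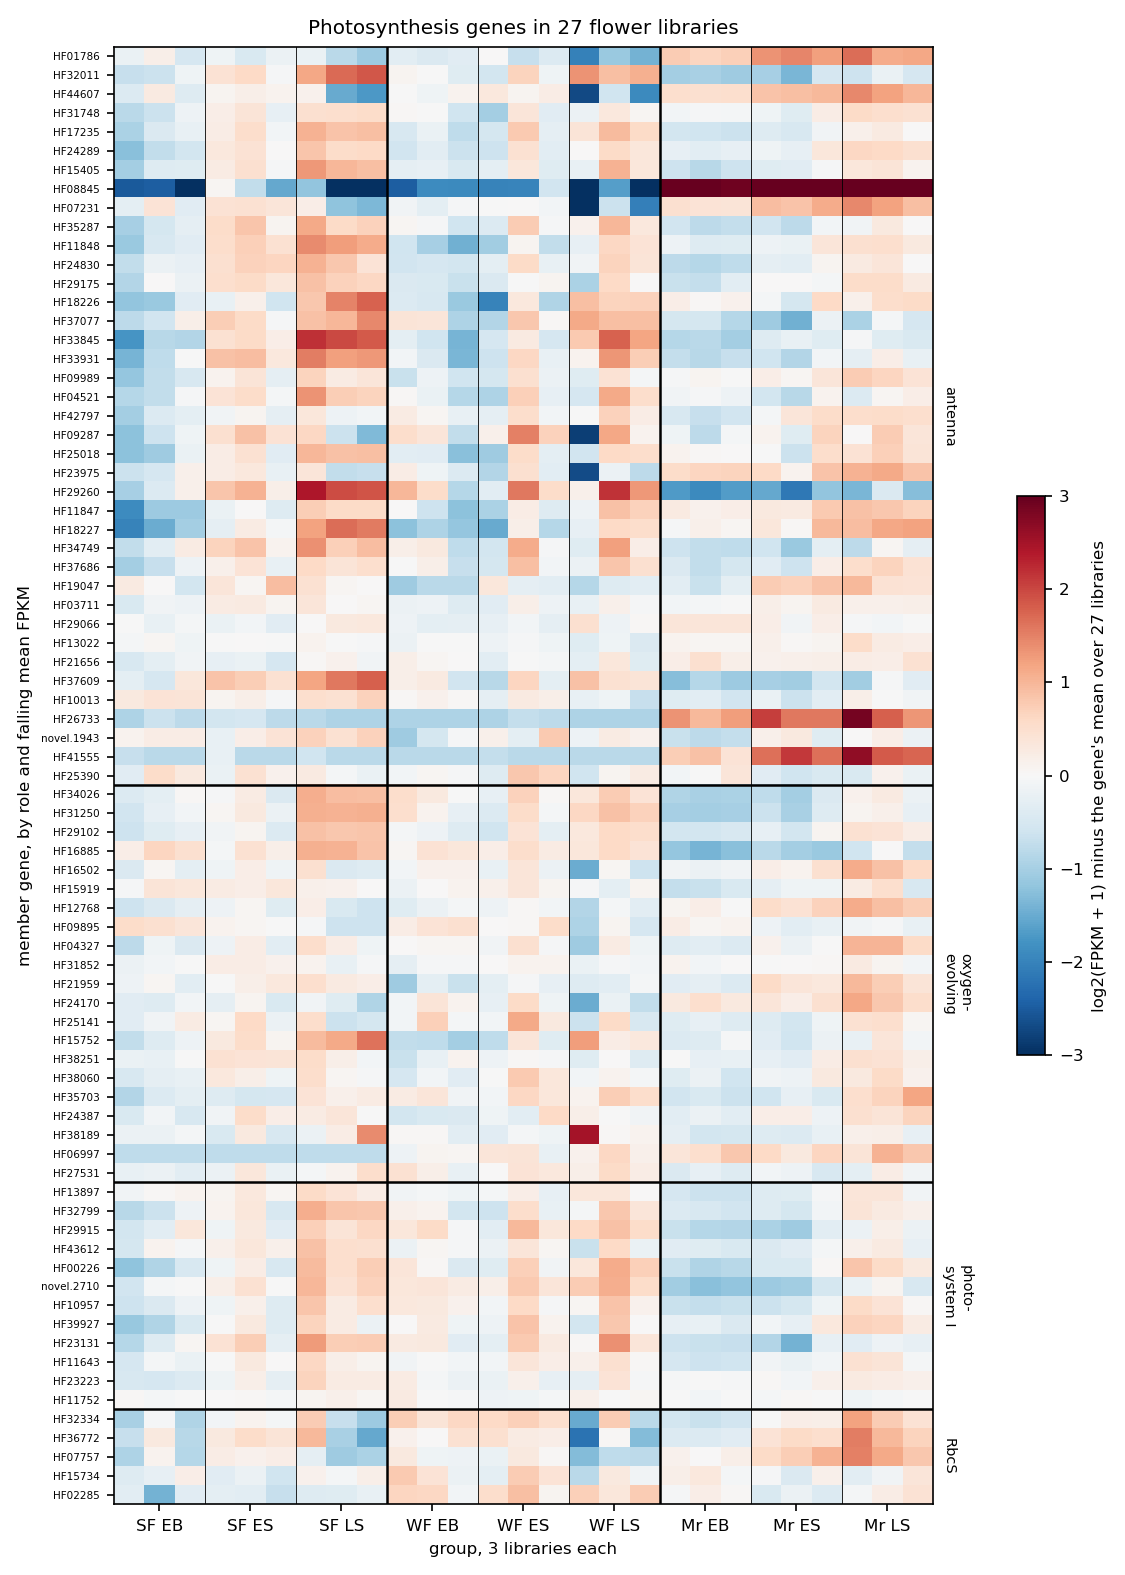
Expression of the 77 tested members in the 27 libraries. Rows are genes by role and falling mean FPKM, columns are groups of 3 libraries, and the color is log2(FPKM + 1) minus the mean of the gene over all libraries. Most rows turn to higher values from EB to LS within SF and Mr, while HF01786, HF44607, HF07231 and the leading RbcS rows are lowest in WF LS 1.

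Whether photosynthesis transcripts changed as the flower opened was asked within each material, with limma on log2(FPKM + 1) and Benjamini-Hochberg adjustment over all 29660 genes (called: adjusted p under 0.05). In SF, 34 of 77 members were called higher and 1 lower at LS than at EB, which is 44.2% and 1.3% of the members beside 7.76% and 8.3% of all genes. The median log2 fold change of the members was 0.60, and that of all genes was -0.01. Called higher were 22 of 39 antenna genes, 5 of 21 of the oxygen-evolving complex and 7 of 12 of photosystem I. No RbcS gene was called. In 50 members (64.9%, beside 20.7% of all genes) every LS library lay above every EB library. Among the 62 members with 1 kind of domain, 29 were called higher and 0 lower. Without SF LS 1, remarked on above, 27 members were called higher and 4 lower. The count depended on single libraries: it was 11 without SF EB 1, 15 without SF EB 2, 5 without SF LS 3 and 0 without SF LS 2, a setting in which 29 genes were called in all.

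The members with the largest rises in SF were antenna genes. HF33845 had 273, 235 and 213 FPKM at LS, against 16.7, 32.5 and 31.7 FPKM at EB. HF18227 had 79.7, 111 and 101 FPKM at LS, against 7.78, 11.5 and 16.3 FPKM at EB. HF29260 had 156, 112 and 108 FPKM at LS, against 13.8, 21.1 and 31.7 FPKM at EB. None of these groups overlapped, and the log2 fold changes were 3.16 (SE 0.28, adjusted p = 0.00899), 2.98 (SE 0.27, adjusted p = 0.00957) and 2.50 (SE 0.32, adjusted p = 0.0145) by limma. All 3 are models with a second domain. Among models with a chlorophyll a/b binding domain alone, HF18226, the neighbor of HF18227, had 149, 239 and 294 FPKM at LS, against 36.6, 38.9 and 66.7 FPKM at EB (log2 fold change 2.23, SE 0.34, adjusted p = 0.0186 by limma), and HF32011 reached 813, 1176 and 1321 FPKM at LS, against 223, 229 and 332 FPKM at EB (2.07, SE 0.27, adjusted p = 0.015).

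The named water-splitting and photosystem I genes of SF had smaller fold changes. The PsbO gene HF31250 had 434, 429 and 439 FPKM at LS, against 140, 174 and 196 FPKM at EB (log2 fold change 1.36, SE 0.15, adjusted p = 0.0124 by limma). The PsbP genes HF34026 and HF29102 rose by 1.19 (SE 0.16) and 1.25 (SE 0.13), with adjusted p of 0.0156 and 0.0115. The PsaH genes HF32799 and HF00226, which in Arabidopsis form the contact between photosystem I and mobile antenna proteins, rose by 1.45 (SE 0.20) and 1.59 (SE 0.22), both with an adjusted p of 0.0164. The one member called lower was HF09895, a PsbP model with a second domain, with 11.5, 7.27 and 7.37 FPKM at LS, against 17.8, 16.8 and 15.5 FPKM at EB (log2 fold change -0.89, SE 0.19, adjusted p = 0.0356 by limma).

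Between ES and EB in SF no member was called, nor was any of all tested genes (0%). In limma 36 members (46.8%, beside 18.2% of all genes) had an unadjusted p under 0.05, and limma voom on fragments also called 0 members. All ES libraries lay above all EB libraries for 30 members, 39% of them beside 10.8% of all genes, and below for 2 members, beside 13.1% of all genes. Between LS and ES in SF, 19 members were called higher and 1 lower, 24.7% and 1.3% of members beside 9.58% and 9.73% of all genes. The largest rises were again HF33845 (1.58, SE 0.14, adjusted p = 0.0113), HF18226 (1.58, SE 0.31, adjusted p = 0.0277) and HF18227 (1.51, SE 0.18, adjusted p = 0.0137), and the one fall was the RbcS gene HF07757, with 89.9, 51.3 and 56.5 FPKM at LS, against 128, 120 and 126 FPKM at ES (-0.95, SE 0.22, adjusted p = 0.036, all by limma). This LS and ES count was 0 without SF ES 1, 1 without SF ES 3, 0 without SF LS 2 and 2 without SF LS 3. Without SF LS 1 it was 16 higher and 9 lower. The ES and EB count was 3 without SF EB 2.

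In WF, 10 members were called higher and 1 lower at LS than at EB, 13% and 1.3% of members beside 7.04% and 10.7% of all genes. The median log2 fold change was 0.30, beside 0.01 over all genes. Called higher were 8 antenna genes and 2 PsbP genes, with no photosystem I gene, and all LS libraries lay above all EB libraries in 24 members (31.2%, beside 22.1% of all genes). HF33845 again led, with 102, 205 and 136 FPKM at LS, against 48, 38.8 and 22 FPKM at EB (log2 fold change 2.01, SE 0.37, adjusted p = 0.0224 by limma). HF15752, a PsbP gene, had 16, 7.37 and 7.8 FPKM at LS, against 3.29, 3.23 and 2.49 FPKM at EB (1.44, SE 0.32, adjusted p = 0.0344), and HF18226 rose by 1.42 (SE 0.21, adjusted p = 0.0134). HF32011 had 925, 670 and 755 FPKM at LS, against 379, 355 and 281 FPKM at EB (1.21, SE 0.23, adjusted p = 0.0227 by limma). The member called lower was the RbcS gene HF07757, with 43.9, 64.2 and 62.8 FPKM at LS, against 134, 99.4 and 98.9 FPKM at EB (-0.95, SE 0.21, adjusted p = 0.0323 by limma). No member was called between ES and EB, beside 0.516% of all genes called higher and 1.13% lower, and 2 members (2.6%, beside 21.8% of all genes) had an unadjusted p under 0.05 in limma. None was called between LS and ES, beside 0.394% and 0.57% of all genes, and 8 members (10.4%, beside 23.2% of all genes) had an unadjusted p under 0.05. Limma voom called 0 members in both. The LS and EB count was 2 without WF EB 1, 1 without WF EB 2 or without WF EB 3, 0 without WF LS 3 and 18 (9 higher, 9 lower) without WF LS 2. The LS and ES count was 3, all lower, without WF LS 2.

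In Mr, 54 members were called higher and 1 lower at LS than at EB, 70.1% and 1.3% of members beside 24.2% and 21.3% of all genes, with a median log2 fold change of 0.73 beside 0.02. These were 26 of 39 antenna genes, 14 of 21 of the oxygen-evolving complex, 11 of 12 of photosystem I and 3 of 5 RbcS genes, and in 59 members (76.6%, beside 31.2% of all genes) the LS libraries all lay above the EB libraries. Without Mr LS 2, remarked on above, 49 were called higher and 1 lower. The largest rise was of HF08845, a short antenna gene of 588 bp on chromosome 6, with 951, 559 and 594 FPKM at LS, against 125, 145 and 121 FPKM at EB (log2 fold change 2.38, SE 0.22, adjusted p = 0.000828 by limma). The RbcS gene HF36772 had 639, 429 and 349.6 FPKM at LS, against 164, 163 and 173 FPKM at EB (1.45, SE 0.22, adjusted p = 0.00378). HF41555, another short antenna gene, had 10.2, 5.36 and 4.92 FPKM at LS, against 1.92, 2.22 and 1.35 FPKM at EB (1.42, SE 0.28, adjusted p = 0.00929 by limma). The member called lower was HF29066, an antenna gene of low level with 8.82, 8.58 and 9.05 FPKM at LS, against 12, 11.9 and 12.1 FPKM at EB (-0.40, SE 0.07, adjusted p = 0.0059 by limma).

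The antenna genes HF33845 and HF32011, which had risen by over 2 on the log2 scale in SF, rose less in Mr, and the tests of this difference are given with the other differences between materials. HF33845 had 57.7, 45.8 and 42.5 FPKM at LS in Mr, against 32.2, 33.4 and 28.6 FPKM at EB, and HF32011 had 233, 314 and 254 FPKM at LS, against 177, 182 and 173 FPKM at EB (log2 fold change 0.58, SE 0.12, adjusted p = 0.0116 by limma). In the oxygen-evolving complex and photosystem I of Mr, HF31250 rose by 1.01 (SE 0.11, adjusted p = 0.00133), HF34026 by 1.02 (SE 0.12, adjusted p = 0.00183) and HF00226 by 1.37 (SE 0.15, adjusted p = 0.00128). For these 3 the difference of SF against Mr in this change did not pass (0.35, 0.17 and 0.21, adjusted p = 0.227, 0.591 and 0.638 by limma). Between ES and EB in Mr 21 members were called higher and 3 lower, 27.3% and 3.9% of members beside 23.2% and 18.7% of all genes, so the higher share was close to that of all genes. The largest of these rises were HF08845 (1.86, SE 0.10, adjusted p = 0.000426), HF19047 (1.19, SE 0.12, adjusted p = 0.00183) and HF41555 (1.13, SE 0.19, adjusted p = 0.00735), all antenna genes. The falls were of HF25390 (antenna, -0.55, SE 0.14), HF02285 (RbcS, -0.41, SE 0.12) and HF09895 (PsbP, -0.36, SE 0.08), with adjusted p of 0.0252, 0.0395 and 0.0174 by limma. HF25390 had 0 Mr libraries at 1 FPKM, so its fall lay wholly below the level of the filter. This count was 15 without Mr EB 1. Between LS and ES in Mr none of the 29660 tested genes was called (0%), and with no filter 12 of 48445 genes and 0 members were. In limma 35 members (45.5%, beside 15.2% of all genes) had an unadjusted p under 0.05, limma voom called 0 members, and in 34 members (44.2%, beside 10.6% of all genes) every LS library lay above every ES library.

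**Figure D3:**
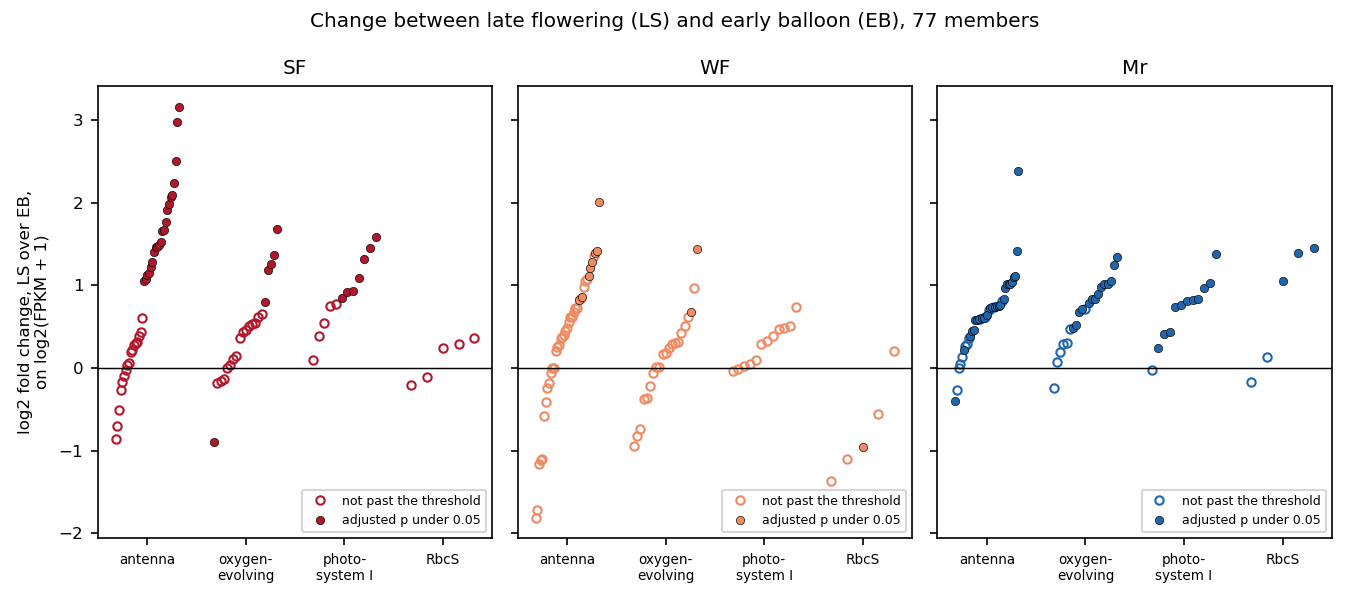
Log2 fold change of each tested member between LS and EB in SF, WF and Mr, by role (LS over EB, on log2(FPKM + 1)). Each point is a gene, filled where the adjusted p was under 0.05. Points lie mostly above 0 in all 3 panels, with 34, 10 and 54 called higher, and RbcS lies below 0 for 4 of 5 genes in WF and above 0 for 4 of 5 in Mr.

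The fitted change between LS and EB was positive in all of SF, WF and Mr for 50 of 77 members (64.9%, beside 28.8% of all genes), and 8 (10.4%, beside 2.8%) were called higher in each: the antenna genes HF11848, HF17235, HF18227, HF24289, HF24830, HF32011 and HF33845, and the PsbP gene HF29102. In 17 members (22.1%, beside 8.51% of all genes) all LS libraries lay above all EB libraries in all 3 materials. The stage means rose in the order EB, ES, LS for 46 members in SF, 37 in WF and 54 in Mr. Over all tested genes that order held for 21.7% in SF, 27.2% in WF and 28.3% in Mr.

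For LS against EB, 0 of 5 RbcS genes were called in SF, 1 lower in WF and 3 higher in Mr. A call in 1 material and not in another is no test of a difference. The difference of SF against Mr in this change passed for no RbcS gene (adjusted p between 0.065 and 0.701 by limma). That of WF against Mr passed for 3, as given below. HF32334, the main RbcS gene, had 465, 885 and 489 FPKM at EB, 852, 971 and 867 FPKM at ES, and 1545, 558 and 424 FPKM at LS in SF. In WF it had 1524, 1182 and 1387 FPKM at EB, 1379, 1491 and 1289 FPKM at ES, and 320.0, 1537 and 514 FPKM at LS. In Mr it had 619.8, 571 and 614 FPKM at EB, 898, 1046 and 1018 FPKM at ES, and 2089, 1536 and 1235 FPKM at LS. In Mr the libraries of the 3 stages did not overlap and were highest at LS, whereas SF and WF each had 1 high library and 2 low ones at LS. The log2 fold change between LS and EB was 1.39 in Mr (SE 0.22, adjusted p = 0.00417 by limma), but -1.10 in WF (SE 0.61, adjusted p = 0.241) and 0.29 in SF (SE 0.55, adjusted p = 0.745). In SF the value rested on SF LS 1, a library remarked on above, and without it was -0.27.

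**Figure D4:**
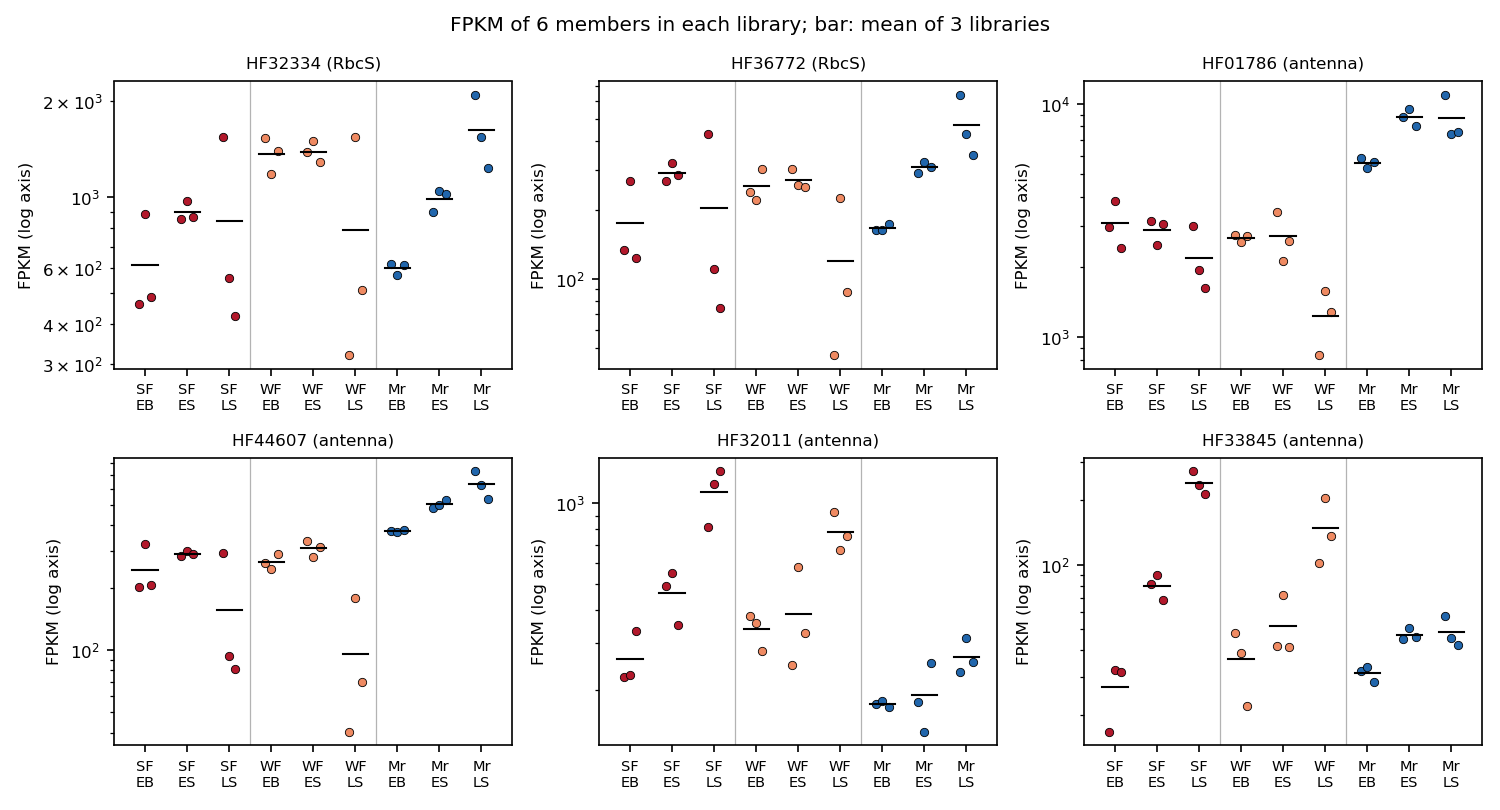
FPKM of 6 members in each library, on log axes. Points are libraries and bars the means of 3. HF32334, HF36772, HF01786 and HF44607 have their highest point in Mr LS and their lowest point in WF LS, whereas HF32011 and HF33845 are highest in SF LS.

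The same libraries stood apart in other genes. HF36772 had 46.3, 225 and 87.6 FPKM at LS in WF, against 241, 221 and 302 FPKM at EB. HF44607 had 40.3, 178 and 70.4 FPKM at LS in WF, against 264, 246 and 289.95 FPKM at EB. HF07231, an antenna gene on chromosome 8, had 11.8, 73.6 and 27.2 FPKM at LS in WF, against 107, 93.1 and 113 FPKM at EB. The highest of the LS values came from WF LS 2 in each. In SF the same genes were high in SF LS 1, with 428, 110 and 75 FPKM for HF36772 and 294, 93.6 and 80.6 FPKM for HF44607 at LS. HF01786, the most abundant member, had 835, 1576 and 1281 FPKM at LS in WF, against 2743, 2555 and 2707 FPKM at EB, and 10964, 7453 and 7601 FPKM at LS in Mr, against 5848, 5318 and 5612 FPKM at EB. Neither set of values overlapped, yet in limma the changes of -1.16 (SE 0.43, adjusted p = 0.111) in WF and 0.61 (SE 0.48, adjusted p = 0.348) in Mr did not pass, while limma voom gave adjusted p of 0.0294 and 0.0185.

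The difference between materials in the change from EB to LS was tested as an interaction. Of WF against Mr, 2 members were called higher and 12 lower, 2.6% and 15.6% of members beside 3.04% and 7.49% of all genes. Without HF41555, which passed the filter only through Mr, the lower count was 11. The lower ones were 6 antenna genes, 3 PsbP genes and 3 RbcS genes, with log2 differences between -3.48 and -0.86. They held HF08845 (-3.48, SE 0.74, adjusted p = 0.0177), HF36772 (-2.82, SE 0.64, adjusted p = 0.0226), HF07231 (-2.57, SE 0.68, adjusted p = 0.0387), HF32334 (-2.49, SE 0.66, adjusted p = 0.0386), HF44607 (-2.46, SE 0.57, adjusted p = 0.0243), HF07757 (-2.01, SE 0.29, adjusted p = 0.0034) and HF01786 (-1.77, SE 0.46, adjusted p = 0.0375), all by limma. The 2 higher ones were HF18226 (1.12, SE 0.26, adjusted p = 0.0234) and HF29066 (0.76, SE 0.21, adjusted p = 0.0429). This count moved strongly with single libraries, and the share of all genes called without each library is not given. It was 8 without WF EB 1, 6 without WF EB 2 or WF EB 3, 5 without WF LS 3, 3 without Mr EB 1 or Mr EB 2, 2 without Mr EB 3, 4 without Mr LS 1, 5 without Mr LS 2, and 29 (4 higher, 25 lower) without WF LS 2. HF07757 and HF08845 were called with any 1 library left out.

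Of SF against Mr, 14 members were called with a higher change and 1 with a lower one, 18.2% and 1.3% of members beside 7.07% and 9.2% of all genes. Of the 14, 12 were antenna genes, with log2 differences between 0.61 and 2.55 over the 14. HF33845 (2.55, SE 0.32, adjusted p = 0.00255), HF18227 (1.94, SE 0.30, adjusted p = 0.00482), HF18226 (1.94, SE 0.38, adjusted p = 0.00988) and HF32011 (1.49, SE 0.29, adjusted p = 0.00998) rose more in SF than in Mr. The lower one was HF41555 (-1.39, SE 0.32), which passed the filter only through Mr and was near 0 in SF. Its call is therefore no test of SF against Mr, and without it the lower count was 0. HF33845, HF18227, HF18226 and HF32011 were called with any 1 library left out. The count was 24 without SF EB 3 and 9 without Mr EB 1. Without SF LS 1 it was 14 higher and 12 lower, and without Mr LS 2 it was 15. Of SF against WF no member was called, beside 0.0944% of all genes higher and 0.0742% lower. There 16 members (20.8%, beside 10% of all genes) had an unadjusted p under 0.05 in limma, limma voom also called 0, and leaving out any 1 library gave 0. The WF and SF tests share the Mr libraries and are not independent of each other.

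SF and WF, the 2 progeny individuals, were then compared at each stage. At EB 0 members were called higher and 1 lower in SF, 0% and 1.3% of members beside 4.23% and 3.35% of all genes. At ES 1 was called higher and 1 lower (1.3% each, beside 4.43% and 3.71%), and at LS 0 higher and 1 lower (0% and 1.3%, beside 1.72% and 1.63%). The gene called lower at each stage was HF06997, a PsbP gene of 720 bp on chromosome 2. It had 0 fragments in all 9 SF libraries. In WF it had 0.518, 0.791 and 0.769 FPKM at EB, 1.17, 1.22 and 0.446 FPKM at ES, and 0.867, 1.62 and 0.871 FPKM at LS, from 6 to 25 fragments a library. Against a floor of 3 fragments per library, SF was at least 2.88-fold lower at EB, at least 4.46-fold lower at ES and at least 4.75-fold lower at LS. Since it passed the filter only through the materials where it is higher, its calls are no test of SF against WF, and without it 0 members were lower at each stage. The gene called higher at ES was HF07231, with 156, 159 and 149 FPKM in SF, against 115, 116 and 109 FPKM in WF (log2 fold change 0.45, SE 0.09, adjusted p = 0.0316 by limma). At LS, 18 members (23.4%, beside 11.6% of all genes) had all SF libraries above all WF libraries, and 2 members all below (9.59% of all genes). With 1 fit of all 9 groups, 7 members were called at EB, 4 at ES and 9 at LS.

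These small counts changed with single libraries as well. The EB count was 2 without SF EB 2, 4 without SF EB 3 and 0 without WF EB 2. The ES count was 0 without SF ES 1, SF ES 2 or SF ES 3, 1 without WF ES 1 or WF ES 3, and 3 without WF ES 2, where HF06997 was not called. The LS count was 2 without WF LS 2 and 0 without any other library, SF LS 1 included.

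Against Mr, SF differed in more members. At EB 12 members were called higher and 18 lower in SF than in Mr, 15.6% and 23.4% of members beside 22.1% and 18.9% of all genes. At ES there were 17 higher and 12 lower, 22.1% and 15.6% beside 18.8% and 16.8%. At LS there were 25 higher and 13 lower, 32.5% and 16.9% beside 16.4% and 16.3%. Without HF06997, HF26733 and HF41555, which no SF library carried past the filter, the lower counts were 15 at EB, 9 at ES and 10 at LS. The shares at EB and ES were near those of all genes, and the higher share at LS was above it. Of the 25, 16 were antenna genes, 5 were of the oxygen-evolving complex and 4 of photosystem I. The EB count was 18 without Mr EB 1, 17 without Mr EB 2 and 19 without Mr EB 3. The ES count was 16 without SF ES 1 and 19 without Mr ES 1. The LS count was 24 without SF LS 2, 25 without SF LS 3 or without Mr LS 1, 28 (21 higher, 7 lower) without Mr LS 2, and 43 (24 higher, 19 lower) without SF LS 1.

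The antenna gene HF08845 had the lowest log2 fold change of SF over Mr at each stage, and low levels in both progeny. HF08845 had 1.82, 1.89 and 0.692 FPKM in SF at EB, against 125, 145 and 121 FPKM in Mr. At ES it had 15.7, 8.71 and 4.55 FPKM in SF, against 502, 489 and 432 FPKM in Mr. At LS it had 6.15, 0 and 0.0986 FPKM in SF, against 951, 559 and 594 FPKM in Mr, with the 6.15 FPKM from SF LS 1. No WF library exceeded 9.75 FPKM. The log2 fold changes of SF over Mr were -5.77 (SE 0.23, adjusted p = 6.56e-05) at EB, -5.62 (SE 0.38, adjusted p = 0.000268) at ES and -8.42 (SE 0.77, adjusted p = 0.00173) at LS by limma. HF26733 (0 to 0.345 FPKM in SF, 0 to 0.151 in WF and 2.69 to 12.8 in Mr) and HF41555 (0 to 0.5 in SF, 0 to 0.0737 in WF and 1.35 to 10.2 in Mr) were also below Mr in every SF library. Both passed the filter only through Mr, so their order is a description with no test.

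Of the 3 most abundant antenna genes, HF01786 and HF44607 were lower in SF than in Mr at every stage and HF32011 was higher. HF01786 had 3006, 1943 and 1620.3 FPKM in SF at LS, against 10964, 7453 and 7601 FPKM in Mr, with log2 fold changes of -0.89 at EB (SE 0.27, adjusted p = 0.043), -1.61 at ES (SE 0.36, adjusted p = 0.0174) and -2.01 at LS (SE 0.47, adjusted p = 0.0219 by limma). HF44607 had -0.66 at EB (SE 0.19, adjusted p = 0.04), -0.79 at ES (SE 0.10, adjusted p = 0.00216) and -2.25 at LS (SE 0.49, adjusted p = 0.0173). At LS the log2 fold change was -1.96 for HF07231 (SE 0.42, adjusted p = 0.0168) and -1.92 for the RbcS gene HF07757 (SE 0.27, adjusted p = 0.00467). HF07757 had 89.9, 51.3 and 56.5 FPKM in SF at LS, against 316, 242 and 192 FPKM in Mr. The leading RbcS genes HF32334 and HF36772 did not pass at LS (-1.15, SE 0.52, adjusted p = 0.137, and -1.58, SE 0.65, adjusted p = 0.107 by limma). HF11847 and HF18227, each of an adjacent antenna pair, were called lower in SF at EB, with -1.56 each (SE 0.23 and 0.24, adjusted p = 0.00411 and 0.00493 by limma), with a difference of -0.17 for HF11847 and 0.39 for HF18227 at LS that did not pass. HF18226 had 36.6, 38.9 and 66.7 FPKM in SF at EB, against 97.1, 87.6 and 92.3 FPKM in Mr (SE 0.23 on the log2 scale, adjusted p = 0.0182 by limma), but was higher by 0.94 in SF at LS (SE 0.27, adjusted p = 0.0406).

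**Figure D5:**
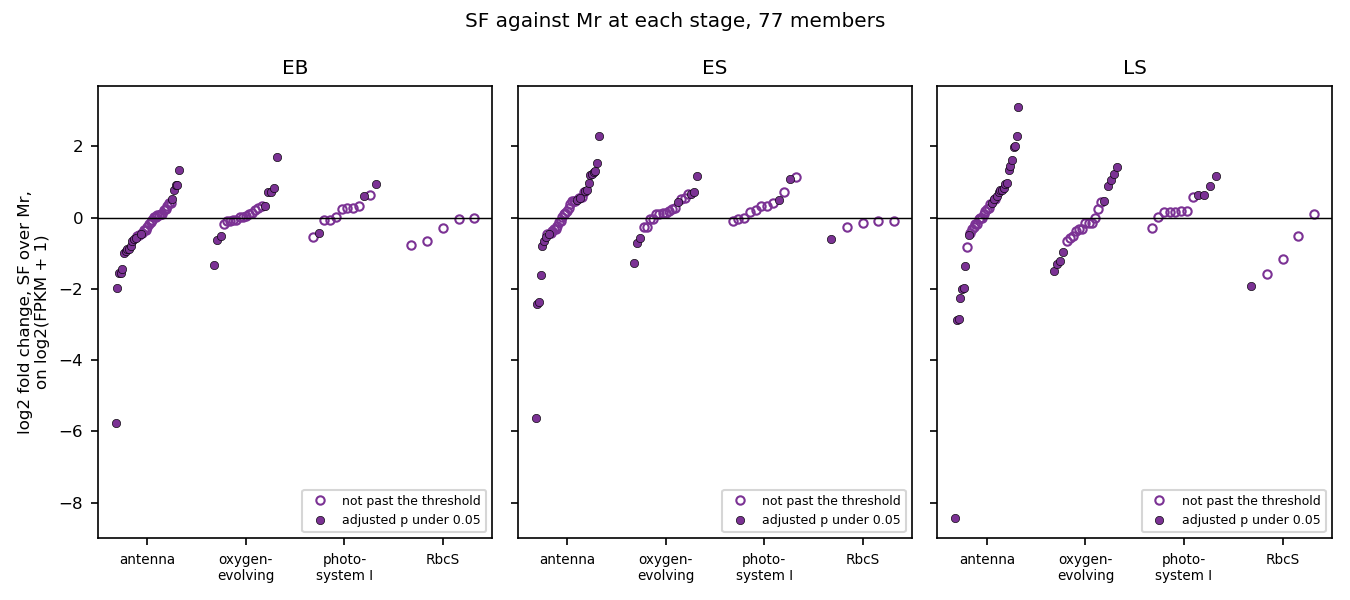
Log2 fold change of each tested member, SF over Mr, at EB, ES and LS, by role (on log2(FPKM + 1)). Each point is a gene, filled where the adjusted p was under 0.05. The lowest point in each panel is HF08845 (-5.77, -5.62 and -8.42), and the number called higher is 12 at EB, 17 at ES and 25 at LS.

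Higher in SF than in Mr at all stages was HF29260, with 156, 112 and 108 FPKM in SF at LS, against 10.3, 20.5 and 11.1 FPKM in Mr. Its log2 fold change was 1.35 at EB (SE 0.29, adjusted p = 0.0139), 2.30 at ES (SE 0.32, adjusted p = 0.00318) and 3.12 at LS (SE 0.28, adjusted p = 0.0017 by limma), and in WF it had 31.5, 131 and 71.4 FPKM at LS. HF33845 was higher by 2.29 (SE 0.16, adjusted p = 0.000926) at LS, and HF32011 by 0.53 (SE 0.17, adjusted p = 0.0464) at EB, 1.29 (SE 0.27, adjusted p = 0.0128) at ES and 2.03 (SE 0.24, adjusted p = 0.00298) at LS. At LS HF32011 had 813, 1176 and 1321 FPKM in SF, against 233, 314 and 254 FPKM in Mr. HF37609, a low antenna gene not placed on a chromosome, and HF37077 were among the largest at ES, with 1.55 (SE 0.19, adjusted p = 0.00204) and 1.32 (SE 0.36, adjusted p = 0.0342 by limma).

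In the oxygen-evolving complex the PsbP gene HF16885 stood out, with 23.4, 32.5 and 28.6 FPKM in SF at EB, against 8.57, 7.05 and 7.99 FPKM in Mr. It was higher by 1.71 at EB (SE 0.14, adjusted p = 0.00055), 1.18 at ES (SE 0.16, adjusted p = 0.00271) and 1.42 at LS (SE 0.20, adjusted p = 0.00491 by limma), and WF had 21.2 to 31 FPKM over all stages. HF31250 was higher by 1.06 at LS (SE 0.14, adjusted p = 0.00423) and HF34026 by 0.88 (SE 0.16, adjusted p = 0.0102). The newly assembled PsaD gene was higher by 0.95 at EB (SE 0.17, adjusted p = 0.00697), 1.09 at ES (SE 0.19, adjusted p = 0.007) and 0.90 at LS (SE 0.20, adjusted p = 0.0179), and PsaH HF32799 by 0.64 at LS (SE 0.13, adjusted p = 0.014 by limma). HF06997, with 0 fragments in SF, had 1.07 to 2.52 FPKM in Mr, so SF was at least 6.31-fold, 6.7-fold and 8.06-fold lower at EB, ES and LS.

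Outside the rule lay HF42181, a 195 bp gene that is annotated with another Rubisco small subunit domain. It was known from earlier results of these data and is given for its levels, with no test. It had 0 to 5.66 FPKM in SF, 1.23 to 283 FPKM in WF and 142 to 471 FPKM in Mr. The 5.66 FPKM came from SF LS 1, a library remarked on above. In WF it had 95.9 to 283 FPKM at EB and 1.23 to 51.3 FPKM at LS, with no overlap.

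Other genes of the pathway were read from lists by domain. For LS against EB, the shares of all genes called higher and lower were 7.76% and 8.3% in SF, 7.04% and 10.7% in WF, and 24.2% and 21.3% in Mr. Of 21 tested genes for other photosystem II subunits and factors, 7 were called higher and 0 lower at LS than at EB in SF, 2 and 1 in WF, and 15 and 0 in Mr. Of 4 electron carrier genes (plastocyanin and the cytochrome complex), 2 were called higher in SF, 0 in WF and 4 in Mr, with 0 lower. Of 26 genes with a phosphoribulokinase or fructose bisphosphatase domain, 1 was called higher and 1 lower in SF, 2 and 0 in WF, and 13 and 1 in Mr. Calvin cycle enzymes carry these domains, but a gene listed by its domain here is not a proven enzyme of that cycle. At LS 3 of the 26 were called higher and 13 lower in SF than in Mr, beside 16.4% and 16.3% of all genes. The summed FPKM of chlorophyll synthesis genes was 75.7 to 138 in SF and 79.6 to 125 in WF, below the 190.2 to 510.5 in Mr. At EB 1 of these 5 genes was called higher and 4 lower in SF than in Mr, beside 22.1% and 18.9% of all genes. Of 13 chlorophyll breakdown genes, 3 were called higher and 1 lower at LS in SF, 2 and 0 in WF, and 8 and 1 in Mr.

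Gene lists used as markers of floral tissues were read as well, and their changes with stage differed between lists and materials. The summed FPKM of the 35 Ole e I genes, a family that includes major pollen proteins, was 1385 to 2260.4 at LS, against 7614 to 8871 at EB, in SF. It was 1335 to 2041 at LS, against 9205 to 9993 at EB, in WF, and 2243 to 2965 at LS, against 5698 to 5914 at EB, in Mr. Called lower at LS were 8 of 27 tested genes in SF, 9 in WF and 12 in Mr, with 0, 0 and 1 higher, beside 8.3%, 10.7% and 21.3% of all genes lower. Oleosins (pollen and tapetum oil bodies) had 2, 1 and 3 of 5 called lower. Their summed FPKM averaged 25.9 ± 8.07 at LS and 64.4 ± 32.1 at EB in SF, 48.9 ± 31.9 and 38.9 ± 7.61 in WF, and 11.3 ± 2.94 and 31.1 ± 1.83 in Mr (SD, n = 3 each), so the mean in WF was higher at LS, within its spread. Ribonuclease T2 genes, which include those of the style, had 0, 0 and 2 of 6 called higher. Chalcone synthase genes, of petal pigment synthesis, summed to 70.5 to 331 FPKM in SF and 58.6 to 522 FPKM in WF, against 900.0 to 2581 FPKM in Mr. Whether these changes reflect the tissue content of the flowers, and what part that had in the photosynthesis results, was not tested.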

How the data were processed

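Whole flowers were sequenced with 150 bp paired-end reads. The authors mapped them to the apple HFTH1 genome v1.0 and deposited FPKM per gene. The submitters' processing notes name StringTie 1.3.3b and DESeq2 1.16.1. Which aligner and counter were run is not given in the sources used here. Gene lengths are coding lengths, since 98.1% of those of HF genes are multiples of 3. Whole fragments were recovered from FPKM, length and the step of each library (tolerance of 0.05 fragments; 100% of 771080 low values came out whole), and gave depth and input for limma voom. A count of 0 allows up to 3 fragments, for counting error only.

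Members were genes whose description held PF00504, PF00101, PF01716, PF01789, PF02507, PF02531, PF02427, PF01241 or PF03244. Members and lists were chosen with earlier results of these data known. limma 3.58.1 in R 4.3.3 (intensity trend) was run on log2(FPKM + 1) in fits of the compared groups alone, over the 29660 genes with an FPKM of 1 in 3 of 27 libraries. Fold changes on this scale understate the change of low genes. Scripts were tested on simulated data. Genes were named by rule: the 3 most abundant in each family, and the 3 largest called changes in each direction of each comparison and difference. HF42181 was named outside this rule, since it was known from earlier results of these data. Alternatives were a pseudocount of 0.1, no filter, 1 fit of all 9 groups, a replicate block, scaling by total fragments, limma voom and leaving out each library. Same-numbered libraries did not deviate together (0 comparisons with every correlation over 0.1).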

Additional observations from a re-analysis of the deposited data

Results flagged for a closer look

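Flagged here are the largest differences between materials in the change from EB to LS that passed the interaction test in limma. At most 3 were taken in each direction of each difference, which gave 9. Other named genes passed as well. With SF over Mr these were 2.55 for HF33845, 1.94 for HF18227, 1.94 for HF18226 and -1.39 for HF41555 (log2). HF41555 passed the filter only through Mr, and its value rests on levels near 0 in SF. It was not called with a pseudocount of 0.1 or with limma voom. With WF over Mr they were 1.12 for HF18226, 0.76 for HF29066, -3.48 for HF08845, -2.82 for HF36772 and -2.57 for HF07231. HF08845 was not called with a pseudocount of 0.1. HF36772 and HF07231 had 225 and 73.6 FPKM in WF LS 2 but at most 87.6 and 27.2 FPKM in the other WF LS libraries. Groups of 3 libraries were too small for a test of single outlying libraries.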

How the results depend on the processing

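Member counts kept their size within 1.5 times under every alternative and every left-out library for LS against EB in Mr (46 to 57 without 1 library) and stayed at 0 for the difference of SF against WF. The others moved, and where no value below shows the cause, the cause was not tested. The share of all genes called in each of these settings is not given beside the counts. A moved count is therefore no result about the members alone. With no filter the counts were 5 for LS against ES and 16 for LS against EB in SF, 1 for LS against EB in WF, 0 for SF against WF at LS, 25 for SF against Mr at LS and 4 for the difference of WF against Mr. With 1 fit of all 9 groups they were 9 for ES against EB in SF, 2, 15 and 28 for ES against EB, LS against ES and LS against EB in WF, 9 and 1 for ES against EB and LS against ES in Mr, and 7 at EB, 4 at ES and 9 at LS for SF against WF. Scaled by total fragments, they were 13 for LS against ES in SF, 5 for LS against EB in WF, 15 for ES against EB in Mr, 7 for the difference of WF against Mr, and, for SF against WF, 2 (EB), 1 (ES) and 2 (LS). With limma voom on recovered fragments, SF against WF at EB gave 4. With the pseudocount of 0.1 no count moved by over 1.5 times.

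With the replicate block, which pairs libraries by number only, the counts were 0 for LS against ES and LS against EB in SF, 0 for LS against EB in WF, 0 for SF against WF at each stage, 19 and 12 for SF against Mr at EB and ES, and 8 for the difference of WF against Mr. Since the numbers did not pair the libraries, this is no measure of a weaker effect.

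Leaving out 1 library gave ranges of 0 to 3 for ES against EB, 0 to 25 for LS against ES and 0 to 31 for LS against EB in SF. In WF they were 0 to 0, 0 to 3 and 0 to 18. In Mr they were 15 to 27 for ES against EB, 0 to 0 for LS against ES and 46 to 57 for LS against EB. SF against WF ran from 0 to 4 at EB, 0 to 3 at ES and 0 to 2 at LS, and the 3 stages of SF against Mr from 17 to 34 (EB), 16 to 32 (ES) and 24 to 43 (LS). The differences ran from 9 to 26 for SF against Mr and 2 to 29 for WF against Mr. Of the named genes called, 0 of 11 in SF and 0 of 6 in WF for LS against EB held the call whichever library was left out, against 13 of 13 in Mr and 10 of 16 for SF against Mr at LS. The only direction that turned was that of HF32334 for LS against EB in SF, which ran from -0.27 without SF LS 1 to 0.66 without SF LS 3. Over 1320 values of 103 gene results, 281 lost and 11 gained the call, most of the losses with fewer samples. At this depth 3 fragments limit low genes such as HF06997.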
